A study of Mus musculus with 18 samples.

Results

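Satellite cells are the stem cells of skeletal muscle, and 10 genes that mark them or serve the signal that wakes them were followed through RNA-seq libraries of C2C12 cells. The genes were chosen by name, with earlier results of these data known. They were the transcription factors Pax3 and Pax7, the growth factor Hgf and its receptor Met, and the chemokine receptor Cxcr4. The others were the calcitonin receptor Calcr, the heparan sulfate proteoglycans Sdc3 and Sdc4, and the surface proteins Vcam1 and Cd34. All 10 were among the 35275 genes measured, and 7 of them passed the filter on low values that left 13869 genes for testing (at least 0.5 FPM in at least 3 libraries). Pax3, Pax7 and Calcr did not pass it.

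C2C12 is a mouse myoblast line that forms myotubes when serum is withdrawn, and the labels describe the stock behind all 18 libraries as negative for PAX7. MUNC is a long noncoding RNA made upstream of Myod1. The 3 lines were control C2C12 cells, labelled wild type, cells that overexpressed the spliced form of MUNC (MUNC spliced) and cells that overexpressed its unspliced form (MUNC genomic). Each was sampled near confluence in growth medium with 20% fetal bovine serum (GM) and after 3 days in medium with 2% horse serum (DM3), with 3 replicates in each of the 6 groups. The vector and promoter, and whether a line was 1 clone or a pool, are not given in the sources used here, so a difference between lines cannot be told apart from a difference between clones. The level of MUNC was not analysed here, so its overexpression was not checked. The series calls the replicates biological, but nothing ties them to separate cultures, and p-values measure only the spread between these samples. Groups follow the sample titles; the source name called cells myoblasts or myotubes against the title in 9 samples.

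On GRCm38, in GENCODE M21, the transcription factor genes span chr1:78101267-78197134 (Pax3) and chr4:139737062-139833528 (Pax7). Hgf spans chr5:16553495-16620152, Met chr6:17463800-17573980, Cxcr4 chr1:128588199-128592293 and Calcr chr6:3685680-3764714. Sdc3 spans chr4:130792537-130826319, Sdc4 chr2:164424247-164443887, Vcam1 chr3:116109949-116129688 and Cd34 chr1:194938819-194961279.

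In muscle, satellite cells lie quiet beneath the basal lamina and carry Pax7, with Pax3 in some muscles. HGF is held in the matrix as an inactive precursor, is cut by serine proteases, and then binds the tyrosine kinase MET, which drives quiescent cells into the cycle and holds back differentiation. Syndecans 3 and 4 carry heparan sulfate chains that bind HGF and FGFs, CXCR4 is the receptor of the chemokine CXCL12, VCAM1 binds integrin alpha-4, CD34 is a sialomucin of quiescent satellite cells that endothelial and blood progenitors also carry, and the calcitonin receptor helps to keep satellite cells quiescent.

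The promoter windows of Hgf and Sdc3, which rose together in control cells, and of Cxcr4 and Cd34, which were higher in both MUNC lines, are shown because they belong to the members with the largest differences. They are RefSeq sequences on GRCm38.p6 that run from 250 bases before to 50 bases after a gene's start, read 5′ to 3′ on the gene's strand, and 8 of the 10 members had such a window. Capitals mark every CANNTG, the E-box letters that MyoD-family factors can bind, which read the same on both strands; the set includes CAGCTG and CAGGTG, which were counted on both strands. Hgf lies at chr5:16553245-16553544 on the plus strand, Sdc3 at chr4:130792287-130792586 on the plus strand, Cxcr4 at chr1:128592250-128592549 on the minus strand and Cd34 at chr1:194938571-194938870 on the plus strand.
Hgf: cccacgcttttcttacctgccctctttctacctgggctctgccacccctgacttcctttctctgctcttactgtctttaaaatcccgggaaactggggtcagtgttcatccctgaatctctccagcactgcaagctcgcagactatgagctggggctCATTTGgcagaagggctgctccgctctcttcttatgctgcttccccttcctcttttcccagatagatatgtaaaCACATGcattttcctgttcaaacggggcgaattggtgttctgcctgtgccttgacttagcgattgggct
Sdc3: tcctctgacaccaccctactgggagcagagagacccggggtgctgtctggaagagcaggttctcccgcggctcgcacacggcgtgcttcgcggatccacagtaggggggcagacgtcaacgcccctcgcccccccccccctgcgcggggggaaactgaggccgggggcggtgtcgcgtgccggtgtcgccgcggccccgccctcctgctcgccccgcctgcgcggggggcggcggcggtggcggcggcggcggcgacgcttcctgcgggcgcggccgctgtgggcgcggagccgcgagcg
Cxcr4: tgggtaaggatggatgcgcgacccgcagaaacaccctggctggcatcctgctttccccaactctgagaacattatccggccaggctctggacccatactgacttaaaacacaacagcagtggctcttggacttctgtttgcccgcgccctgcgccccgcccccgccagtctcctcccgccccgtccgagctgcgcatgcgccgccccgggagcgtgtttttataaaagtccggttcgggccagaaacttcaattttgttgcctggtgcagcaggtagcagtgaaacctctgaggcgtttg
Cd34: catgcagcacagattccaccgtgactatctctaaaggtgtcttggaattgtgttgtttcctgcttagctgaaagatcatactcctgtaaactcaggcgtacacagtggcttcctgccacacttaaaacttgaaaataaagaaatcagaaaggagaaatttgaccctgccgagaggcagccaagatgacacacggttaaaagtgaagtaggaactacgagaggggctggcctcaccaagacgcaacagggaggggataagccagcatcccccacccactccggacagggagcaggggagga
The Hgf window held 2 such sites, the first bases of which were at -93 and -19 from the start, and the windows of Sdc3, Cxcr4 and Cd34 held 0. The Met window held 2 and the Calcr window 1, with 1 CAGGTG in each. The windows of Sdc4 and Pax7 held 0, and their RefSeq starts lie 699 and 560 bases from the GENCODE starts given above. Among all 32817 windows of 300 bases, 72.3% held a CANNTG, 20.2% a CAGGTG and 16.3% a CAGCTG. These matches describe letters in a short window and say nothing on which factor was bound.

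Levels are given in FPM, fragments scaled by the authors for library size. The recovered depth was 38416702 to 68788327 reads per library. A gene with no read has an upper limit of 3 reads, at most 0.0757 FPM in any library, which covers counting error only. Differences are in log2(FPM + 1) with the standard error (SE), which understates the change of genes near 1 FPM, and a gene is called where limma gave an adjusted p below 0.05 over all 13869 genes. Ratios of mean FPM are given as folds. The myoblast genes Myf5, Des and Cdh15 had means of 71.8, 24.2 and 46.3 FPM in control GM, while Myod1, the master regulator of myogenesis, was near 0 in control cells (0.0285 FPM in GM and 0.0993 FPM in DM3). The summed level of 6 markers of differentiated muscle (Myog, Myh3, Acta1, Ckm, Mymk and Tnnt3) was 8.10 to 13.2 FPM in control libraries in DM3, 150 to 820 FPM in those of MUNC spliced cells and 50.4 to 93.3 FPM in those of MUNC genomic cells. That sum was 12.03 to 31.5 FPM in control GM, so its range in control cells was not higher in DM3 than in GM.

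Pax7, the defining factor of satellite cells, was nearly absent in every line, as the label of the stock says. It had 0 to 8 reads per library, and its highest level in any of the 18 libraries was 0.147 FPM. With edgeR's quasi-likelihood test over the 24893 genes with a read, a choice made after the data were seen, Pax7 was called in 0 of 11 comparisons, and its lowest adjusted p was 0.097 (MUNC genomic DM3 against GM). Calcr had 0 reads in all 18 libraries, which allows at most 0.0757 FPM.

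Pax3, the paralogue of Pax7 that marks migrating muscle progenitors, was found in MUNC genomic cells and at or near 0 in the others. Its levels in MUNC genomic cells were 0.315, 0.287 and 0.294 FPM in GM and 0.712, 0.437 and 0.429 FPM in DM3, from 14 to 36 reads per library. All 3 MUNC spliced libraries in each medium and all 3 control GM libraries had 0 reads, and 1 control DM3 library had 2 reads (0.0384 FPM). No MUNC genomic library overlapped a library of another line. With a library at 0 counted as 3 reads, mean Pax3 in MUNC genomic GM was at least 5.63-fold higher than the control level and at least 3.94-fold higher than the MUNC spliced level. In DM3 it exceeded the MUNC spliced level at least 9.24-fold. With edgeR, where 14.2% of genes were called between MUNC genomic and control cells in GM, the adjusted p of Pax3 was 0.000341. It was 0.000258 in DM3, where the share of genes called was 22%. Against MUNC spliced cells it was 0.000379 in GM (19.4% of genes called) and 4.51e-05 in DM3 (24.8% of genes called). Between the media within MUNC genomic cells the edgeR difference was 0.83 in log2 with an adjusted p of 0.379, whereas limma on all genes without the filter called it (0.23, adjusted p = 0.00232). In the authors' deposited table the log2 fold change of Pax3 in GM was 6.65, with an adjusted p of 6.2e-05, a fold set against libraries at 0. In all of these bulk libraries, fewer cells with a transcript and less transcript per cell cannot be told apart.

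**Figure D1:**
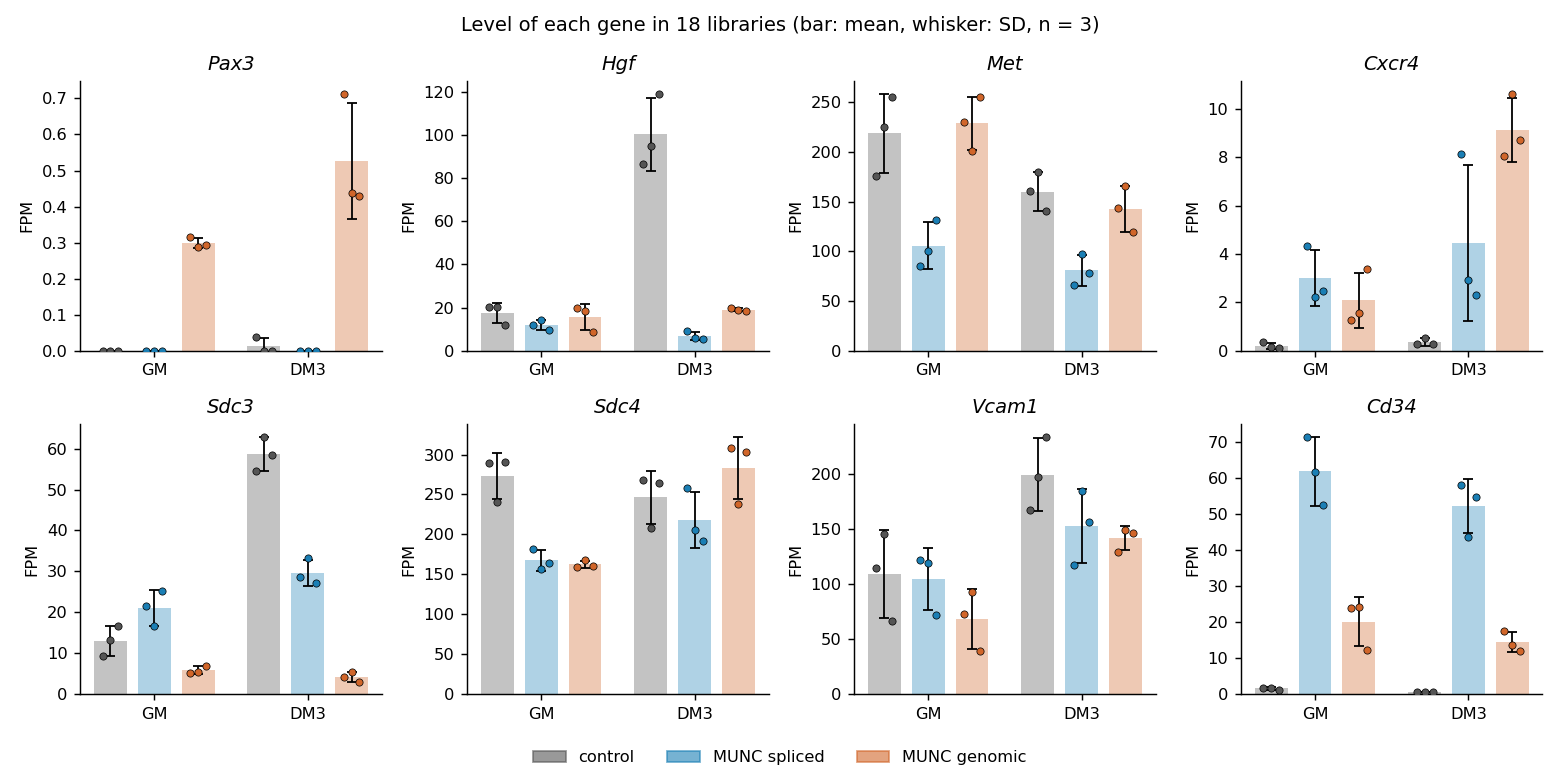
Level in FPM (linear axes from 0) of 8 genes in GM and DM3, with 1 point per library, bars at the mean of 3 libraries and whiskers of 1 SD. Hgf and Sdc3 stand highest in control DM3, Cd34 is highest in MUNC spliced cells, and Pax3 stays under 0.8 FPM and is found in MUNC genomic cells.

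Hgf, the ligand that activates satellite cells, rose in control cells in differentiation medium, and no rise passed the test in either MUNC line. Control GM libraries held 20.1, 20.1 and 11.99 FPM and control DM3 libraries held 86.6, 94.99 and 119 FPM, with no overlap. The mean went from 17.4 ± 4.69 to 100.2 ± 16.8 FPM (SD, n = 3), which is 5.76-fold, and the log2 difference was 2.48 (SE 0.26, limma adjusted p = 1.32e-06). In control cells 58.2% of all tested genes were called between the media, 29.6% higher and 28.6% lower in DM3.

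MUNC spliced cells held less Hgf after 3 days than before. Their libraries held 11.8, 14.4 and 9.74 FPM in GM and 8.92, 6.01 and 5.59 FPM in DM3, and the groups did not overlap. The log2 difference was -0.74 (SE 0.26, limma adjusted p = 0.0372), in a comparison where 35.6% of genes were called, 17.2% higher and 18.4% lower. That call was lost when the spread was taken from the compared groups alone (adjusted p = 0.0541) and when replicate 1 or 2 of GM or replicate 2 or 3 of DM3 was left out. It was also lost without the filter on low values (limma adjusted p = 0.0756). MUNC genomic libraries held 19.6, 18.2 and 8.76 FPM in GM and 19.7, 18.7 and 18.6 FPM in DM3. Their difference of 0.35 (95% interval -0.20 to 0.90) was not called by limma (adjusted p = 0.279), while 51.4% of genes were, 26.3% higher and 25.1% lower.

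In DM3 the lines were far apart in Hgf. The mean in MUNC spliced cells, 6.84 ± 1.82 FPM, was 14.7-fold lower than in control cells (log2 difference -3.70, SE 0.26, limma adjusted p = 1.55e-08). The mean in MUNC genomic cells, 19.0 ± 0.589 FPM, was 5.28-fold lower than in control cells (-2.33, SE 0.26, limma adjusted p = 2.28e-06). MUNC spliced cells were also lower than MUNC genomic cells, by 1.37 in log2 (SE 0.26, limma adjusted p = 0.000428). In GM neither line differed from control past the threshold: -0.48 (95% interval -1.04 to 0.07) for MUNC spliced and -0.20 (-0.75 to 0.36) for MUNC genomic cells. The change between the media itself differed from that of control cells in both lines. The interaction was -3.22 for MUNC spliced (SE 0.37, limma adjusted p = 0.000118) and -2.13 with the genomic form (SE 0.37, limma adjusted p = 0.00147). Of all genes, 14.4% had a called interaction with the spliced form (7.43% higher, 6.94% lower). The share was 8.81% with the genomic form (3.56% higher, 5.25% lower).

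Met, the receptor of HGF, was lower in MUNC spliced cells in both media and close to control in MUNC genomic cells. Control libraries held 176, 225 and 255 FPM in GM and 161, 180 and 140 FPM in DM3. MUNC spliced libraries held 85.0, 100.49 and 132 FPM in GM and 66.6, 97.8 and 78.1 FPM in DM3, all below every control library of the same medium. The fall against control was 2.07-fold in GM (-1.05, SE 0.18, limma adjusted p = 0.000374) and 1.98-fold in DM3 (-0.99, SE 0.18, limma adjusted p = 0.000417). In these comparisons 35.5% of genes were called in GM (18.2% higher, 17.3% lower) and 43.3% in DM3 (22.3% higher, 21% lower).

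MUNC genomic libraries held 230, 201 and 255 FPM of Met in GM and 144, 165 and 119 FPM in DM3, overlapping control in both media. The differences from control were 0.07 (95% interval -0.32 to 0.46) in GM and -0.17 (-0.56 to 0.22) in DM3, and limma called neither (adjusted p = 0.826 and 0.496). The shares of genes called there were 26.8% in GM (12.2% higher, 14.5% lower) and 40.3% in DM3 (19.3% higher, 20.9% lower). MUNC spliced cells had less Met than MUNC genomic cells in GM (-1.12, SE 0.18, limma adjusted p = 0.000168) and in DM3 (-0.82, SE 0.18, limma adjusted p = 0.00176). Between the 2 MUNC lines 35.8% of genes were called in GM (19.9% higher, 16% lower in MUNC spliced) and 44.2% in DM3 (23.4% higher, 20.8% lower).

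Differentiation medium lowered Met in the MUNC genomic line by 0.68 in log2 (SE 0.18, limma adjusted p = 0.00557), with no overlap. In control cells the difference was -0.44 (SE 0.18) with a limma adjusted p of 0.0508, and 0.0359 with the replicate number as a block; the authors' deposited table gives an adjusted p of 0.029. It was -0.38 (95% interval -0.77 to 0.01) in MUNC spliced cells. The interaction was called in neither MUNC line, at 0.06 for MUNC spliced and -0.24 for MUNC genomic cells (limma adjusted p = 0.905 and 0.637). A difference between lines in the response of Met was thus not shown. Per length, the level of Hgf was 0.0892 ± 0.0363 of that of Met in control GM and 0.682 ± 0.193 in control DM3 (ratio of FPM per kilobase, SD, n = 3). In DM3 the ratio was 0.0951 ± 0.0420 in MUNC spliced and 0.144 ± 0.0229 in MUNC genomic cells, below the lowest control DM3 library (0.565).

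**Figure D2:**
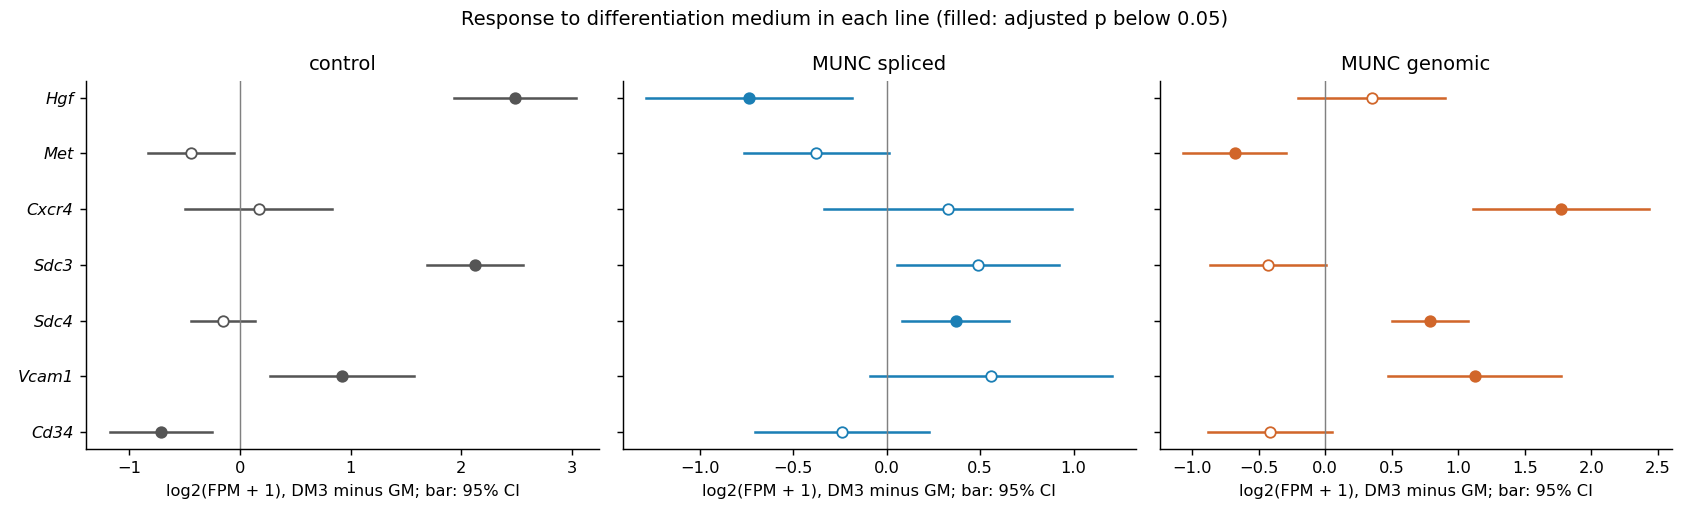
Difference in log2(FPM + 1) between DM3 and GM for the 7 tested genes in each line, with 95% confidence intervals; filled points were called by limma. Hgf and Sdc3 lie at 2.48 and 2.13 in control cells and under 0.6 in both MUNC lines.

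Other genes of the HGF and MET pathway moved in both directions. Of 19 listed, 14 were tested, and the list held the proteases that activate HGF and their inhibitors, the related ligand Mst1, co-receptors and MET's adaptors. Between the media in control cells 5 rose and 3 fell, in a comparison where 58.2% of all genes were called. Plau, which encodes the urokinase that can activate HGF, rose from 115 to 334 FPM (log2 difference 1.53, SE 0.26), and its receptor gene Plaur fell from 63.5 to 23.9 FPM (-1.32, SE 0.31). Against control in DM3, 3 genes were higher and 3 lower in MUNC spliced cells, and 2 were higher and 4 lower in MUNC genomic cells, where 43.3% and 40.3% of all genes were called. The medians of the tested genes there were -0.14 and -0.10 in log2, against 0.01 and -0.01 over all genes.

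Plat, which encodes tissue plasminogen activator, was higher than control in DM3 in both lines, at 59.6 ± 16.7 FPM in MUNC spliced and 45.1 ± 4.92 FPM in MUNC genomic cells against 15.8 ± 1.13 FPM (1.81 and 1.45 in log2, SE 0.23, limma adjusted p = 1.35e-05 and 0.000115). Gab1, the main docking adaptor of MET, was higher in both (0.50 and 0.57, SE 0.11). Mst1, which encodes the HGF-like ligand of the receptor RON, was lower in both, at 0.118 and 0.239 FPM against 1.57 FPM. Plaur was lower in MUNC spliced cells (-1.38, SE 0.31, limma adjusted p = 0.00166). In GM 3 genes of the list were higher and 2 lower in MUNC spliced cells, where 35.5% of all genes were called. In MUNC genomic cells 0 were higher and 2 lower, where 26.8% of all genes were called. The count for MUNC genomic cells rose to 4 with edgeR, DESeq2, pseudocount 0.1, rescaling to equal sums or no filter. With the replicate block it rose to 5. Without replicate 2 of control GM it was 4, and without replicate 3 of MUNC genomic GM it was 5. For MUNC spliced cells it fell from 5 to 3 when 1 library was left out in turn, at the lowest.

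**Figure D3:**
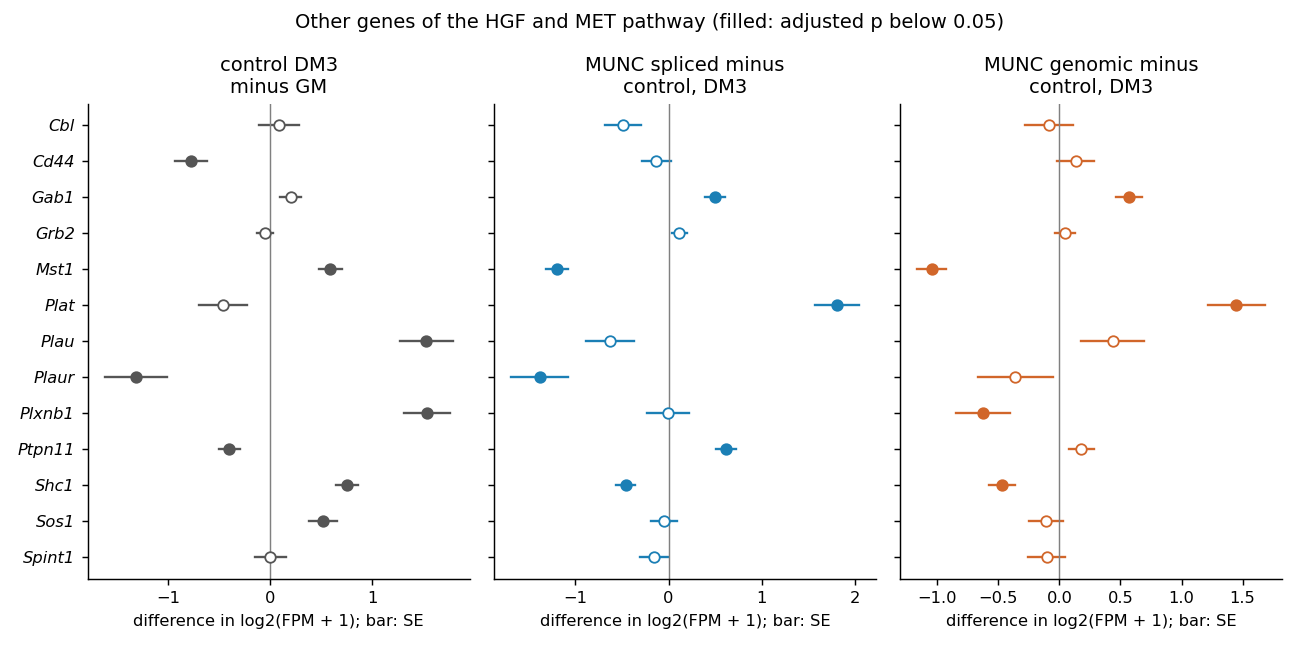
Difference in log2(FPM + 1) with 1 SE for the tested genes of the HGF and MET list, all but 1 of which are shown, in control cells between media and in each MUNC line against control in DM3; filled points were called by limma. Plat and Gab1 lie to the right and Mst1 to the left of 0 in both MUNC lines.

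Cxcr4, which guides cells along CXCL12, was near 0 in control cells and higher in both MUNC lines. Control libraries held 0.341, 0.159 and 0.123 FPM in GM and 0.288, 0.533 and 0.258 FPM in DM3. MUNC spliced libraries held 4.34, 2.22 and 2.49 FPM in GM and 8.16, 2.91 and 2.31 FPM in DM3, where replicate 1 stood apart from the other two. MUNC genomic libraries held 1.29, 1.55 and 3.40 FPM in GM and 8.05, 10.6 and 8.74 FPM in DM3.

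All MUNC libraries exceeded all control libraries in Cxcr4. Control libraries held 8 to 20 reads of it in GM and 14 to 27 in DM3. Cxcr4 passed the filter on low values only with the MUNC libraries, where it was high, which limits the p-values against control. In GM the mean was 14.5-fold higher in MUNC spliced cells (1.70, SE 0.31, limma adjusted p = 0.000571) and 10.01-fold higher with the genomic form (1.29, SE 0.31, limma adjusted p = 0.0056). In DM3 it was 12.4-fold higher in MUNC spliced cells (1.86, SE 0.31, limma adjusted p = 0.000173), or 7.27-fold without their replicate 1, and 25.4-fold higher for the genomic form (2.90, SE 0.31, limma adjusted p = 1.48e-06). On the recovered reads edgeR gave log2 differences of 3.80 and 3.31 in GM and 3.64 and 4.68 in DM3, over 1.5 times the values on log2(FPM + 1).

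Differentiation medium raised Cxcr4 in the MUNC genomic line by 4.39-fold (1.77, SE 0.31, limma adjusted p = 0.000209). In control and MUNC spliced cells the medium differences were 0.17 (95% interval -0.49 to 0.83) and 0.33 (-0.33 to 0.99), and the latter became -0.12 without replicate 1 of MUNC spliced DM3. The interaction for MUNC genomic cells was 1.60 (SE 0.44, limma adjusted p = 0.0316), but edgeR gave an adjusted p of 0.362, and leaving out 1 library ended the call in 10 of 12 cases. That call was also lost with DESeq2 (adjusted p = 0.292), and in limma without the filter (0.0794) or with pseudocount 0.1 (0.148). Between the MUNC lines in DM3, limma called Cxcr4 lower in the spliced line (-1.04, SE 0.31, adjusted p = 0.0131), although the groups overlapped. edgeR did not (adjusted p = 0.0808), and neither did limma without replicate 2 or 3 of MUNC spliced DM3 or replicate 2 of MUNC genomic DM3 (-0.75 to -0.93). DESeq2 (adjusted p = 0.0561) and limma with the spread from the compared groups alone (0.0502) did not call it either.

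Cxcl12, the ligand of CXCR4, was abundant in all lines. It rose from 61.5 ± 8.40 to 167 ± 6.20 FPM between the media in control cells (1.43, SE 0.30, limma adjusted p = 0.000634). MUNC genomic cells held more than control, 160 FPM in GM (1.33, SE 0.30, limma adjusted p = 0.00323) and 570 FPM in DM3 (1.77, SE 0.30, limma adjusted p = 0.000161). Ackr3, the scavenging receptor that also binds CXCL12, fell in control cells from 19.0 to 8.67 FPM (-1.04, SE 0.26, limma adjusted p = 0.00261). Of the calcitonin receptor's partners, Ramp1, which encodes a subunit that changes the receptor's ligand choice, was at 7.73 ± 2.01 FPM in MUNC genomic DM3 against 0.894 ± 0.184 FPM in control (2.18, SE 0.21, limma adjusted p = 2.99e-07), while Calcr itself had no read.

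Sdc3, the syndecan of quiescent and activated satellite cells, rose in control cells in differentiation medium and reached lower levels in both MUNC lines. Control libraries held 9.22, 13.1 and 16.7 FPM in GM and 54.6, 62.8 and 58.5 FPM in DM3. MUNC spliced libraries held 21.4, 16.6 and 25.1 FPM in GM and 28.5, 33.2 and 27.1 FPM in DM3. MUNC genomic libraries held 5.04, 5.45 and 6.83 FPM in GM and 4.14, 5.24 and 2.91 FPM in DM3, under every other library of either medium.

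The rise of Sdc3 in control cells was 4.51-fold (2.13, SE 0.21, limma adjusted p = 6.59e-07). It was 0.49 (95% interval 0.05 to 0.92, limma adjusted p = 0.074) in MUNC spliced and -0.43 (-0.86 to 0.01, limma adjusted p = 0.0927) in MUNC genomic cells. Both interactions were called, at -1.64 for MUNC spliced (SE 0.29, limma adjusted p = 0.0027) and -2.55 for MUNC genomic cells (SE 0.29, limma adjusted p = 3.78e-05). In DM3 the mean was 1.98-fold lower than control in MUNC spliced cells (-0.96, SE 0.21, limma adjusted p = 0.00129) and 14.3-fold lower with the genomic form (-3.57, SE 0.21, limma adjusted p = 7.37e-10).

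In GM the lines moved in opposite directions from control for Sdc3. MUNC genomic cells were 2.25-fold lower (-1.02, SE 0.21, limma adjusted p = 0.00148). MUNC spliced cells were 1.62-fold higher (0.67, SE 0.21, limma adjusted p = 0.0184), but the groups overlapped, and the call was lost without control replicate 1 (0.46) or MUNC spliced replicate 1 (0.65) or 3 (0.54). It was also lost with the spread from the compared groups alone (limma adjusted p = 0.0775). MUNC spliced exceeded MUNC genomic cells 3.64-fold in GM and 7.23-fold in DM3 (1.69 and 2.61 in log2, SE 0.21, limma adjusted p = 7.96e-06 and 3.04e-08).

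Sdc4, the most abundant member per length, varied within a narrower range. Control libraries held 289, 240 and 291 FPM in GM and 268, 208 and 264 FPM in DM3. In GM both lines were lower than every control library, at 182, 156 and 164 FPM in MUNC spliced and 159, 168 and 160 FPM in MUNC genomic cells. In DM3 they overlapped control, at 258, 206 and 191 FPM and at 308, 238 and 303 FPM.

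The differences of Sdc4 from control in GM were -0.70 for MUNC spliced (SE 0.14, limma adjusted p = 0.000839) and -0.75 for MUNC genomic cells (SE 0.14, limma adjusted p = 0.000641). In DM3 they were -0.18 (95% interval -0.46 to 0.11) and 0.20 (-0.09 to 0.48), and limma called neither. The medium raised Sdc4 in the MUNC genomic line by 0.79 (SE 0.14, limma adjusted p = 0.000164), with an interaction of 0.94 (SE 0.19, limma adjusted p = 0.00511). In MUNC spliced cells the medium difference was 0.37 (SE 0.14, limma adjusted p = 0.0432), a call lost when the spread came from the compared groups alone (adjusted p = 0.0923) and without replicate 2 or 3 of GM or replicate 1 or 2 of DM3 (0.24 to 0.41). That call was also lost without the filter (limma adjusted p = 0.0733), after rescaling to equal sums (0.0553) and after quantile normalization (0.0687). Between the MUNC lines in DM3, limma called Sdc4 lower in the spliced line (-0.37, SE 0.14, adjusted p = 0.0336); the groups overlapped, and leaving out replicate 2 or 3 of MUNC spliced or replicate 1 or 3 of MUNC genomic cells ended the call (-0.29 to -0.34). It was also lost without the filter (adjusted p = 0.0557) and with the spread from the compared groups alone (0.0756).

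Per length, Sdc3 was 0.103 ± 0.0223 of Sdc4 in control DM3 and 0.00639 ± 0.00271 in MUNC genomic DM3 (ratio of FPM per kilobase, SD, n = 3). Sdc2, another syndecan of the cell surface, rose between the media in control cells from 230 to 493 FPM (1.11, SE 0.23, limma adjusted p = 0.000536). In DM3 it was higher than control in both lines, at 985 ± 84.2 FPM in MUNC spliced and 879 ± 109 FPM in MUNC genomic cells (0.995 and 0.83 in log2, SE 0.23, limma adjusted p = 0.00207 and 0.00786).

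Cd34 was higher than control in both lines and both media, and in MUNC spliced cells its fold was the largest of the 7 tested members in each medium. Control libraries held 1.74, 1.73 and 1.14 FPM in GM and 0.615, 0.473 and 0.534 FPM in DM3. MUNC spliced libraries held 71.4, 61.8 and 52.5 FPM in GM and 58.2, 43.7 and 54.8 FPM in DM3. MUNC genomic libraries held 23.8, 24.3 and 12.2 FPM in GM and 17.4, 13.6 and 12.02 FPM in DM3. The order MUNC spliced, MUNC genomic, control held without overlap between lines in each medium.

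Against control, mean Cd34 was 40.3-fold higher in GM and 96.7-fold higher in DM3 in MUNC spliced cells (4.63 and 5.10 in log2, SE 0.22, limma adjusted p = 1.75e-10 and 4.73e-11). It was 13.1-fold and 26.6-fold higher in the MUNC genomic line (3.01 and 3.30, SE 0.22, limma adjusted p = 2.15e-08 and 4.26e-09). MUNC spliced exceeded MUNC genomic cells by 1.62 in GM and 1.80 in DM3 (SE 0.22, limma adjusted p = 2.53e-05 and 5.28e-06). Differentiation medium lowered Cd34 in control cells 2.84-fold (-0.71, SE 0.22, limma adjusted p = 0.0109; -1.54 with edgeR on reads). It was not called in MUNC spliced (-0.24, 95% interval -0.70 to 0.23) or MUNC genomic cells (-0.41, -0.88 to 0.05; called at -0.72 without replicate 3 of MUNC genomic GM). The main fit called neither interaction, at 0.47 for MUNC spliced and 0.30 for MUNC genomic cells (limma adjusted p = 0.318 and 0.626). edgeR called the first of these (1.31, adjusted p = 0.0306). In the authors' deposited tables the log2 fold change of Cd34 in DM3 was 6.59 for MUNC spliced and 4.75 for MUNC genomic cells.

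Endothelial cells also carry Cd34 and Vcam1, and markers of that type were read beside them. The summed level of 6 endothelial markers (Pecam1, Cdh5, Kdr, Tek, Emcn and Tie1) was 0.250 to 0.761 FPM in control libraries, 0.898 to 1.77 FPM in MUNC spliced and 4.01 to 7.63 FPM in MUNC genomic libraries. Most of it was Cdh5 in MUNC genomic cells, with means of 7.14 FPM in GM and 4.20 FPM in DM3, and Tek in MUNC spliced cells, with 1.05 and 1.26 FPM. limma called both against control (Cdh5 2.77 and 2.22, Tek 0.83 and 0.99). Pecam1 stayed at or under 0.221 FPM, and Kdr, Emcn and Tie1 had at most 2 reads in any library. The endothelial sum was highest in MUNC genomic cells and Cd34 was highest in MUNC spliced cells, and a link between them was not tested. Of the blood cell markers, the pan-leukocyte gene Ptprc stayed at or under 0.328 FPM, and Cd68 was lower than control in DM3 in both lines (-1.15 and -0.97 in log2, SE 0.23). Mesenchymal cells can carry Cd34 too. The summed level of 5 pericyte markers (Rgs5, Cspg4, Pdgfrb, Acta2 and Notch3), most of it Acta2, was 1375 to 2017 FPM in control GM and 1671 to 1719 FPM in control DM3. It was above control without overlap in both lines, at 2313 to 3084 FPM and 2672 to 3640 FPM in MUNC spliced GM and DM3 and at 2257 to 2424 FPM and 2446 to 3722 FPM in MUNC genomic GM and DM3. Rgs5, the most specific of them, had group means at or under 0.301 FPM. Of the 4 pericyte markers tested, limma called 2 higher and 0 lower than control in MUNC spliced cells in each medium. In MUNC genomic cells it called 1 higher and 0 lower in GM, and 1 higher and 1 lower in DM3. Of all genes, 35.5% and 43.3% were called in MUNC spliced GM and DM3, and 26.8% and 40.3% in MUNC genomic GM and DM3. The sum of 5 fibroblast markers (Pdgfra, Ly6a, Dpt, Dcn and Col1a1) in GM was 1971 to 3053 FPM in control, 3148 to 6093 FPM in MUNC spliced and 800 to 2228 FPM in MUNC genomic cells. In DM3 it was 3753 to 3979 FPM in control, 5204 to 5622 FPM in MUNC spliced and 1460 to 1778 FPM in MUNC genomic cells. The fibroblast sum was thus above control in MUNC spliced cells in both media and, in DM3, below it in MUNC genomic cells. Most of the 5 genes did not follow the sum in MUNC spliced cells. There limma called 1 higher and 0 lower than control in each medium. In MUNC genomic cells it called 1 higher and 1 lower in GM, and 1 higher and 2 lower in DM3. The part of all these marker genes in the Cd34 difference was not tested.

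Vcam1, the adhesion partner of integrin alpha-4, rose with differentiation medium in control and MUNC genomic cells, and no difference between lines passed the threshold in either medium in the fit over all 18 libraries. Control libraries held 115, 145 and 66.6 FPM in GM and 167, 197 and 233 FPM in DM3. MUNC spliced libraries held 122, 119 and 71.5 FPM in GM and 117, 184 and 156 FPM in DM3. MUNC genomic libraries held 73.0, 92.7 and 38.9 FPM in GM and 129, 149 and 146 FPM in DM3. In GM replicate 3 was the lowest library of each line for Vcam1, and likewise for Hgf and Cd34.

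The medium difference of Vcam1 was 0.92 in control cells (SE 0.31, limma adjusted p = 0.0168) and 1.12 in the MUNC genomic line (SE 0.31, limma adjusted p = 0.00593). In control cells it fell to 0.61 without replicate 3 of GM (limma adjusted p = 0.107) and to 0.80 without replicate 3 of DM3 (0.0662). It was 0.56 (95% interval -0.09 to 1.21) in MUNC spliced cells. The interaction was called in neither MUNC line, at -0.36 for MUNC spliced and 0.20 for MUNC genomic cells (limma adjusted p = 0.616 and 0.832). A difference between lines in the response of Vcam1 was thus not shown. Against control, limma gave -0.03 (-0.68 to 0.62) for MUNC spliced and -0.68 (-1.33 to -0.03, adjusted p = 0.113) for MUNC genomic cells in GM. Without replicate 3 of control GM or replicate 2 of MUNC genomic GM the latter was called, at -0.999 and -0.95. In DM3 limma gave -0.39 (-1.04 to 0.25) and -0.48 (-1.13 to 0.17, adjusted p = 0.231). All 3 MUNC genomic DM3 libraries lay below all control DM3 libraries, and that difference was called with the spread taken from the compared groups alone (limma adjusted p = 0.0175). The authors' deposited table gives it an adjusted p of 0.00355. Between the MUNC lines limma gave 0.65 in GM (0.00228 to 1.2999, adjusted p = 0.11), called without replicate 3 of MUNC spliced GM (0.90) or replicate 2 of MUNC genomic GM (0.91), and 0.09 in DM3 (-0.56 to 0.74). Of the integrin chains that bind VCAM1, Itga4 and Itga9 had at most 6 reads in any library, and Itgb7 was lower than control in DM3 in both lines, at 3.98 and 6.22 FPM against 103 FPM (-4.40 and -3.87, SE 0.41, limma adjusted p = 4.09e-07 and 1.25e-06). Itgb1, the beta chain that pairs with alpha-4 and alpha-9, was abundant in DM3, at 1349 and 1398 FPM in the MUNC spliced and MUNC genomic lines against 1131 FPM in control. limma did not call these differences (0.26 and 0.31, SE 0.13, adjusted p = 0.125 and 0.072), but did with the replicate number as a block (adjusted p = 0.0299 and 0.0126). The MUNC spliced difference was also called by limma after quantile normalization (adjusted p = 0.0324). The MUNC genomic difference was also called by edgeR (adjusted p = 0.0464), DESeq2 (0.0206) and limma after rescaling to equal sums (0.0478).

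**Figure D4:**
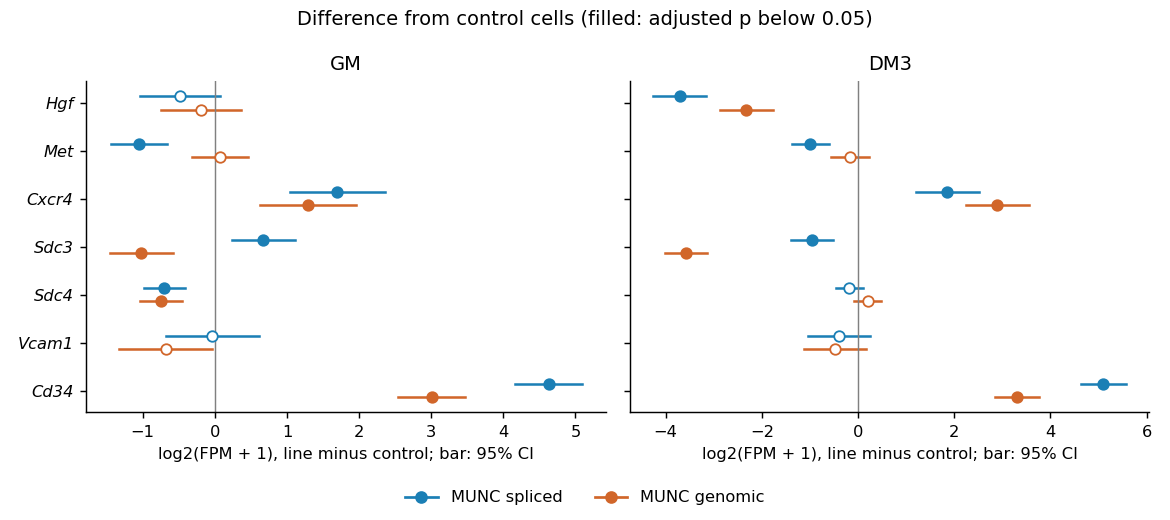
Difference in log2(FPM + 1) from control cells with 95% confidence intervals for the 7 tested genes in GM and DM3; filled points were called by limma. Cd34 and Cxcr4 lie above 0 in both lines and media, Hgf lies at -3.70 and -2.33 in DM3, and Vcam1 was called in neither medium.

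Counted over the 7 tested members, 4 were called between the media in control cells, 2 in MUNC spliced and 4 in MUNC genomic cells, against 58.2%, 35.6% and 51.4% of all genes. Against control, 5 were called in MUNC spliced cells in each medium and 4 in MUNC genomic cells in each medium, where 35.5% and 43.3%, and 26.8% and 40.3%, of all genes were called in GM and DM3. Between the MUNC lines 3 members were called in GM, against 35.8% of all genes, and 6 in DM3, against 44.2%. The interaction was called for 2 members with the spliced form, against 14.4% of all genes, and for 4 with the genomic form, against 8.81%. These counts over 7 genes are a description, and no test was made of them. Cxcr4 was among the 7 only through its level in the MUNC lines. Under a rescaling to equal library sums the share of higher genes among those called against control in GM was 66.1% in place of 51.3% in MUNC spliced cells. It was 56.2% in place of 45.6% in MUNC genomic cells, and 41.4% in place of 51.7% in the MUNC spliced interaction. The direction of each called member held under that rescaling.

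The order of the groups differed from member to member. For Hgf, control DM3 stood above MUNC genomic DM3 without overlap, neighbours from there down to MUNC spliced GM overlapped, and MUNC spliced DM3 stood below MUNC spliced GM without overlap. For Sdc3 the order was control DM3, MUNC spliced DM3, MUNC spliced GM, control GM, MUNC genomic GM and MUNC genomic DM3, with overlap only between MUNC spliced GM and control GM and between both MUNC genomic groups. For Met and Vcam1 every pair of neighbours in the order overlapped. For Cd34 the neighbours overlapped only between the media of each MUNC line. Per length, in FPM per kilobase in control GM, Sdc4 (107) stood above Met (28.5) and Vcam1 (12.3), then came Hgf (2.42) and Sdc3 (2.17), and Cd34 (0.211) and Cxcr4 (0.115) were lowest among tested members.

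The genes with the most similar pattern over the 18 libraries were found for the members with the largest moderated F, among genes that reached a group mean of 5 FPM. They were Pkdcc and Actr3b for Cd34 (Pearson r in log2(FPM + 1) of 0.987 and 0.980), Flrt2 and Lphn2 for Sdc3 (0.964 and 0.937), and Trim7 and Prkcd for Hgf (0.962 and 0.944). The points share lines, media and library scaling, so these values describe likeness alone. Pkdcc, for instance, had means of 0.728, 6.57 and 3.51 FPM in control, MUNC spliced and MUNC genomic GM. Flrt2 in DM3 held 399 FPM in control, 251 FPM in MUNC spliced and 59.0 FPM in MUNC genomic cells.

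Of 20 listed further satellite cell and progenitor genes, 18 were tested. Between the media 10 rose and 2 fell in control cells (58.2% of all genes called), 6 rose and 0 fell in MUNC spliced cells (35.6%), and 11 rose and 2 fell in MUNC genomic cells (51.4%). Their median log2 differences were 0.58, 0.36 and 0.69, against 0.02, -0.01 and 0.02 over all genes. Itga7, the laminin-binding integrin of satellite cells, rose by 1.46 (SE 0.26). Against control, 6 were higher and 3 lower in MUNC spliced GM, 3 and 3 in MUNC genomic GM, 5 and 3 in MUNC spliced DM3, and 4 and 3 in MUNC genomic DM3, where 35.5%, 26.8%, 43.3% and 40.3% of all genes were called. Of 20 listed ligands and partners of the other members, 17 were tested. Of these 7 rose and 1 fell in control cells between media, and against control the counts in the same order were 5 and 1, 3 and 3, 4 and 3, and 4 and 6. The shares of all genes called in these comparisons are those given above. The count of partners called in MUNC spliced GM fell from 6 to 3 when 1 library was left out, at the lowest.

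Spry1, an inhibitor of receptor tyrosine kinase signalling that quiescent satellite cells need, was near 0 in control DM3 (0.0263 FPM) and reached 54.8 ± 16.9 FPM in MUNC spliced and 36.3 ± 7.23 FPM in MUNC genomic DM3 (5.72 and 5.17 in log2, SE 0.31, limma adjusted p = 7.49e-10 and 1.09e-09). Heyl, a Notch target, was at 0.0189 FPM in control DM3 and at 3.42 and 10.8 FPM in the MUNC lines (2.09 and 3.52, SE 0.50, limma adjusted p = 0.00284 and 2.9e-05). Spry1 had at most 1 read in a control GM library and 4 in a control DM3 library. It passed the filter on low values only through the MUNC lines, where it was high. The p-values of Spry1 and Heyl are thus set against a control DM3 level near 0. Ncam1, a cell adhesion gene of committed progenitors, was higher in both lines in DM3 (1.31 and 0.69, SE 0.18). Other genes of the list went the other way. In DM3 limma called 5 higher and 3 lower in MUNC spliced cells, and 4 higher and 3 lower in MUNC genomic cells. Cav1 was at 367 ± 43.0 FPM in MUNC spliced and 477 ± 48.3 FPM in MUNC genomic DM3. It was at 715 ± 61.6 FPM in control DM3, without overlap. The lines differed in others. Cdh15, which encodes M-cadherin, was higher in MUNC spliced cells in GM and DM3 (1.83 and 1.48, SE 0.23). Its mean in MUNC genomic GM was lower, at 22.9 ± 5.81 FPM against 46.3 ± 2.26 FPM in control GM. In DM3 it was 99.9 ± 17.0 FPM in MUNC genomic and 76.4 ± 21.6 FPM in control cells. In MUNC genomic cells the intermediate filament gene Des was higher (4.25 and 3.53, SE 0.34) and the myogenic factor Myf5 lower (-1.39 and -1.82, SE 0.17) in GM and DM3.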

How the data were processed

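RNA-seq of polyadenylated RNA was made from 18 libraries in 6 groups of 3. Per the submitters' processing notes, STAR, HTSeq, DESeq2 and the build mm10 were used; the annotation is not given in the sources used here. The authors deposited a normalized signal in FPM per gene, which a label calls FPKM. In every library 100% of the values were whole multiples of 1 step (to within 0.0354 of a read), so reads were recovered by division. FPM summed to 946834 to 1048477 per library. The authors also deposited 5 tables with log2 fold changes and adjusted p-values, per the file headers, which are quoted only where named. They sit on the DESeq2 scale of counts.

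Here log2(FPM + 1) was fitted with limma 3.58.1 (R 4.3.3) over all 18 libraries at once, with Benjamini-Hochberg adjustment and a threshold of 0.05. Genes needed 0.5 FPM in 3 libraries. edgeR 4.0.16 and DESeq2 1.42.0 on recovered reads were alternatives, with other pseudocounts, filters and scalings. For Pax3 and Pax7, below the filter, edgeR over all genes with a read was chosen after seeing the data. On simulated data for MUNC spliced against control in GM (12728 genes), limma recovered 83% of 2-fold and 99% of 4-fold changes with 12 false calls. There 100 genes of each size were changed, all above a minimum control level. Libraries were drawn independently, without the link between same-numbered libraries. These figures therefore do not carry over to genes with few reads or to data with many changed genes. The members and gene lists were chosen with earlier results of these data known, and every member was described. Likeness was sought for the 3 members with the largest F. Of 87 list genes 2 were matched by identifier. A few list genes count in the totals but are not reported here by name.

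Same-numbered libraries deviated together: their correlations were 0.0163 to 0.727, and 24 of 27 pairs were over 0.1. In 6 comparisons every pair was over 0.1, which is a reading of the data and not of the labels. The main limma fit did not pair the samples, so its p-values do not use this link. The replicate number entered as a block only in an alternative setting, given below.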

Additional observations from a re-analysis of the deposited data

Results flagged for a closer look

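For 6 values the change between media differed from that of control cells by a test of the difference itself, the limma interaction in log2(FPM + 1). They are 2 of 7 tested members for MUNC spliced and 4 of 7 for MUNC genomic cells, where 14.4% and 8.81% of all genes were called. Hgf moved by -3.22 more in MUNC spliced and by -2.13 more in MUNC genomic cells than in control cells. Sdc3 moved by -1.64 and -2.55 more. For MUNC genomic cells the interaction was 1.60 for Cxcr4, which edgeR and DESeq2 did not call, and 0.94 for Sdc4.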

How the results depend on the processing

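Of 77 results on tested members, 43 were called. Over 693 values under other settings with all replicates kept, 662 kept direction and side of the threshold, 16 calls of 6 results were lost, 9 were gained and 6 signs turned, none of a called value. With 1 library left out, 30 of 546 values lost a call, 11 gained one and 17 turned sign; the causes were not tested. Called members between the media in MUNC spliced cells fell from 2 to 0 without the filter, 1 after rescaling to equal sums, 0 with the compared groups alone, and 0 to 1 without 1 library. Turned signs were Vcam1 in MUNC spliced against control in GM (0.0806 after rescaling, 0.0445 after quantile normalization), the MUNC spliced interaction of Met (-0.0059 after rescaling) and that of Cxcr4 (-0.20 with pseudocount 0.1, -0.16 with edgeR, -0.20 with DESeq2). Without 1 library, signs turned within these ranges: Cxcr4 -0.12 to 0.61 between media in MUNC spliced cells; Vcam1 -0.35 to 0.22 in MUNC spliced against control in GM; Hgf -0.43 to 0.15 and Met -0.0733 to 0.19 in MUNC genomic against control in GM; Sdc4 -0.0173 to 0.0931 in GM and Vcam1 -0.0618 to 0.27 in DM3 between the MUNC lines. Interactions did so for Met (-0.0835 to 0.23) and Cxcr4 (-0.29 to 0.44) in MUNC spliced and Vcam1 (-0.15 to 0.52) and Cd34 (-0.0096 to 0.46) in MUNC genomic cells. The MUNC spliced interaction of Cd34 was called with edgeR (1.31), DESeq2 (1.28) and pseudocount 0.1 (1.09). With the replicate block, Met in control cells (-0.44) and the MUNC spliced interaction of Sdc4 (0.52) became called, and no other call of a tested member changed. Genes called between media in MUNC spliced cells fell from 4933 to 3046 with the compared groups alone. For the MUNC spliced interaction 1993 became 1214 with the compared groups alone and 3868 with the block, and for MUNC genomic cells 1222 became 777 with edgeR and 2265 with the block. Near 0 FPM the pseudocount sets the size of a log2 difference, and levels of a few reads limit Pax3 and Pax7.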
